A study of Mus musculus with 12 samples.

Results

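Ccl5, also known as RANTES, encodes a small secreted chemokine that draws T cells, monocytes and other leukocytes towards its source through G protein-coupled receptors. Memory and effector CD8 T cells and natural killer cells are rich in its RNA. Naive T cells hold little of it, and it is a late product of T cell activation. Ccl5 was taken by name from the deposited averages of spleen T cells, as 1 gene of the 3684 listed in CD4 or CD8a cells and of the 2166 listed in both. It was selected on measured values, its levels in both cell types and its differences between stressed and unstressed mice. These are therefore described with no test, and tests of Ccl5 are kept to the genotype of the mice and to the spread within groups.

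The groups were stressed KO mice (S100a9-/- on C57Bl6/J, repeated social defeat stress), unstressed KO mice (the same deletion, no stress), stressed WT mice (C57Bl6/J, repeated social defeat stress) and unstressed WT mice (C57Bl6/J, no stress), with 3 mice in each. In repeated social defeat a mouse is exposed again and again to an aggressor, which models chronic social stress. It lasted 10 days and was followed by 1 day of behaviour testing, and spleens were taken on day 12. S100a9 encodes a calcium-binding protein of neutrophils and monocytes. The labels give neither the age of the mice nor the part of S100a9 that was removed, and they do not say whether KO and WT mice were littermates. Every library held whole splenocytes with erythrocytes lysed, and how cells were called CD4 or CD8a is not given in the sources used here.

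Each value is a gene's average over the cells of 1 type in 1 mouse, on a linear scale of 10000. The listed genes summed to between 8120 and 8225 in CD4 cells of stressed mice and to between 7367 and 7562 in unstressed mice, and to 8102 to 8270 and 7419 to 7615 in CD8a cells of stressed and of unstressed mice. The number of cells behind an average is unknown, so no counting error can be given. S100a9 itself averaged 0.025 and 0.045 in CD4 cells of stressed and of unstressed KO mice, against 0.092 and 0.011 in stressed and unstressed WT mice, so its level does not check the labels. The mitochondrial gene mt-Nd3 did separate the genotypes. It made up at most 0.807% of the summed level of mt-Nd3 and Gm28438, annotated as an unprocessed pseudogene on chromosome 1, in KO mice, against at least 99.5% in WT mice. Loss of S100a9 and this second difference cannot be told apart in any KO against WT comparison. Cd4 averaged 2.08 and 2.67 in CD4 cells of stressed and of unstressed KO mice and 1.75 and 2.78 in stressed and unstressed WT mice, and it is not among the genes listed for CD8a cells. Cd8a and Cd8b1, which encode the chains of the CD8 receptor, are listed in both cell types and are given with the comparison of cell types.

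Ccl5 lies on the minus strand of chromosome 11 (chr11:83525778-83530518 in mm10), and its protein-coding transcript has 3 exons and 532 bases. No annotated gene overlaps it. It sits in a cluster of CC chemokine genes with Ccl9, Ccl6, Ccl3 and Ccl4, all within 250 kb. Of these neighbours only Ccl4, which starts 132066 bases away, is listed in either cell type. The authors' selection for 1 comparison at a time listed Ccl5 in 1 of 4 CD4 tables, for stress in WT mice. It listed Ccl5 in 3 of 4 CD8a tables, for stress in KO mice, for stress in WT mice and for KO against WT mice without stress.

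Ccl5 was higher in stressed than in unstressed mice in both cell types and both genotypes. In CD4 cells it stood at 10.8, 12.2 and 34.3 in the stressed KO mice, against 5.54, 2.87 and 5.89 in the unstressed KO mice. In CD4 cells of WT mice it stood at 22.8, 7.19 and 20.4 after stress, against 2.45, 3.22 and 1.87 without stress. Stressed KO mouse 3 was high and stressed WT mouse 2 was low within their groups, yet neither stressed group overlapped its unstressed group. In CD8a cells Ccl5 stood at 16.3, 27.1 and 36.5 in the stressed KO mice, against 8.47, 10.1 and 14.8 in the unstressed KO mice. In CD8a cells of WT mice it stood at 18.3, 16.5 and 21.6 after stress, against 6.99, 11.4 and 6.66 without stress. Here too every stressed mouse exceeded every unstressed mouse of its genotype, by the narrowest margin in KO mice, where the lowest stressed mouse stood 1.10 times above the highest unstressed mouse.

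**Figure D1:**
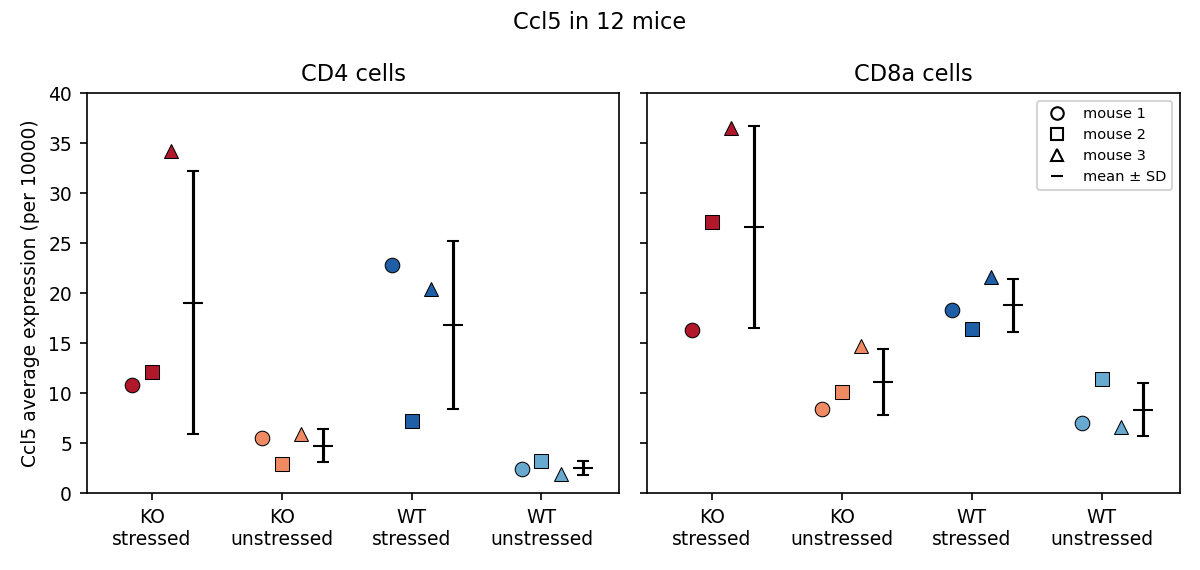
Average expression of Ccl5 (per 10000, linear axis) in CD4 cells (left panel) and CD8a cells (right panel) of each mouse, with the mean and SD of the 3 mice of a group in black beside them. Stressed mice lie above unstressed mice of their genotype in both panels, and CD4 values of stressed mice spread from 7.19 to 34.3.

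As group means, CD4 cells held 19.1 ± 13.2 in stressed KO mice against 4.77 ± 1.65 in unstressed KO mice, and 16.8 ± 8.42 in stressed WT mice against 2.51 ± 0.674 in unstressed WT mice (SD, n = 3 each). CD8a cells held 26.7 ± 10.1 in stressed KO mice against 11.1 ± 3.26 in unstressed KO mice, and 18.8 ± 2.62 in stressed WT mice against 8.34 ± 2.64 in unstressed WT mice (SD, n = 3 each). The ratio of stressed to unstressed means was 4.0 in KO and 6.69 in WT CD4 cells, and 2.40 in KO and 2.25 in WT CD8a cells. On the log2(value + 0.1) scale the stress difference was 1.84 ± 0.43 in KO and 2.56 ± 0.43 in WT CD4 cells, and 1.22 ± 0.24 in KO and 1.20 ± 0.24 in WT CD8a cells (SE). The median listed gene stood at 0.00, 0.09, 0.01 and 0.02 in the same 4 comparisons. Of all genes, 12.7% were called higher and 29.0% lower with stress in KO CD4 cells, 22.9% and 27.7% in WT CD4 cells, 13.2% and 34.4% in KO CD8a cells, and 18.8% and 35.5% in WT CD8a cells. Called means an adjusted p under 0.05 by limma, and nothing is read from these shares for Ccl5. Here and below, all genes means the genes listed for the cell type. The authors selected these on the same mice, 1898 and 2413 CD4 genes for stress in KO and in WT mice. For CD8a cells they selected 2023 and 2108. The shares are therefore not those of every expressed gene. Without the stressed KO mouse 3 the CD4 difference in KO mice was 1.32, and without the stressed WT mouse 2 that in WT mice was 3.09.

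Among all listed genes, only Gzma, the gene of the cytotoxic granule protease granzyme A, had a larger stress difference in CD4 cells. Ccl5 ranked 2nd of 2999 genes there in KO and in WT mice. In CD8a cells it ranked 1st of 2851 in WT mice and 4th in KO mice, after the haemoglobin genes Hbb-bs, Hbb-bt and Hba-a1. In WT mice the chemokine gene Xcl1 stood in a near tie, at 1.20 ± 0.30 against 1.20 ± 0.24 for Ccl5 (log2, SE). In KO mice Hba-a1 and Ccl5 both stood at 1.22. These ranks are of the differences by which Ccl5 was picked, and the added 0.1 understates changes of low genes. Ccl5 also varied widely between mice of 1 group. Its SD within groups was 0.73 on the log2 scale in CD4 cells, the 6th highest of 2999 genes, and 0.43 in CD8a cells, the 20th highest of 2851. The median gene had an SD within groups of 0.14 and 0.13 in these cell types.

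In the order of the group means, CD8a cells of stressed KO mice came first, followed by CD4 cells of stressed KO mice and CD8a and CD4 cells of stressed WT mice. CD8a cells of unstressed KO and of unstressed WT mice followed, then CD4 cells of unstressed KO mice and of unstressed WT mice. Neighbours in this order had overlapping ranges in all cases but 1. That exception was CD8a cells of unstressed WT mice, of which the lowest mouse at 6.66 stood above the highest CD4 value of the unstressed KO mice at 5.89. Averages over the cells of 1 type in a mouse cannot tell a larger share of Ccl5-positive cells apart from more Ccl5 RNA per cell.

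The design asks whether loss of S100a9 altered T cells and their response to stress. For Ccl5 no KO against WT difference passed the threshold of an adjusted p of 0.05. In CD4 cells of unstressed mice KO stood above WT in 8 of 9 pairs of mice, with a log2 difference of 0.86 ± 0.43 (SE). Its 95% interval ran from -0.06 to 1.79, and limma gave an adjusted p of 0.287. Among 2999 genes, 97 passed in this comparison, or 3.23%. In CD4 cells of stressed mice the difference was 0.14 ± 0.43, with an interval from -0.78 to 1.07 and an adjusted p of 0.948 by limma, and KO stood higher in 5 of 9 pairs. In that comparison 3 genes passed, or 0.1%. KO and WT values overlapped in both conditions.

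In CD8a cells KO stood above WT in 7 of 9 pairs of unstressed mice, with a log2 difference of 0.41 ± 0.24 and an interval from -0.08 to 0.91 (limma, adjusted p = 0.524). After stress KO stood above WT in 6 of 9 pairs, with 0.43 ± 0.24 and an interval from -0.06 to 0.93 (limma, adjusted p = 0.464). In these comparisons 20 genes (0.702%) and 18 genes (0.631%) of 2851 passed. With genotype labels permuted within stressed and within unstressed mice, the KO minus WT difference over both conditions was 0.50 in CD4 cells (exact two-sided permutation p = 0.25) and 0.42 in CD8a cells (exact p = 0.11). The 400 relabelings allow no p below 0.005. Without the stressed KO mouse 1 the CD8a value was 0.58 with an exact permutation p of 0.035, the only alternative of this permutation test that passed.

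The stress difference of Ccl5 was not shown to differ between genotypes by the interaction term. In CD4 cells the stress difference of KO mice minus that of WT mice was -0.72 ± 0.61, with an interval from -2.03 to 0.59 (limma, adjusted p = 0.654). In CD8a cells it was 0.02 ± 0.33, with an interval from -0.68 to 0.72 (limma, adjusted p = 0.992). These intervals are wide, so the responses were not shown to be alike either. No listed gene passed the interaction by limma in either cell type (0 of 2999 and 0 of 2851, or 0%), while 284 and 204 genes had an unadjusted p under 0.05.

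**Figure D2:**
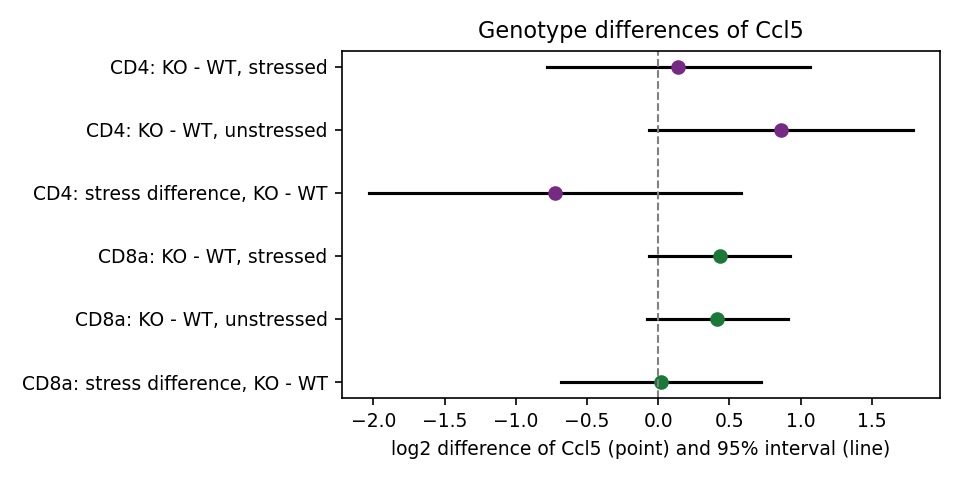
Genotype differences of Ccl5 on the log2(value + 0.1) scale (horizontal axis) for CD4 cells (upper 3 lines, purple) and CD8a cells (lower 3 lines, green), with points for the limma estimate and lines for its 95% interval. All 6 intervals include 0, and the widest, for the stress difference in CD4 cells, runs from -2.03 to 0.59.

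Ccl5 was higher in CD8a than in CD4 cells of the same mouse in 11 of 12 mice, the exception being stressed WT mouse 1. Within a mouse, the CD8a minus CD4 difference was 0.61 ± 0.53 in stressed KO and 0.32 ± 0.78 in stressed WT mice, and 1.23 ± 0.59 in unstressed KO and 1.68 ± 0.18 in unstressed WT mice (log2, SD, n = 3 each). The CD8a level was 0.803 to 2.29 times the CD4 level of the same mouse after stress, and 1.53 to 3.55 times without stress. These ranges overlap. The 2 stressed mice with almost equal levels in both cell types were KO mouse 3, at 1.07 times, and WT mouse 3, at 1.06 times.

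**Figure D3:**
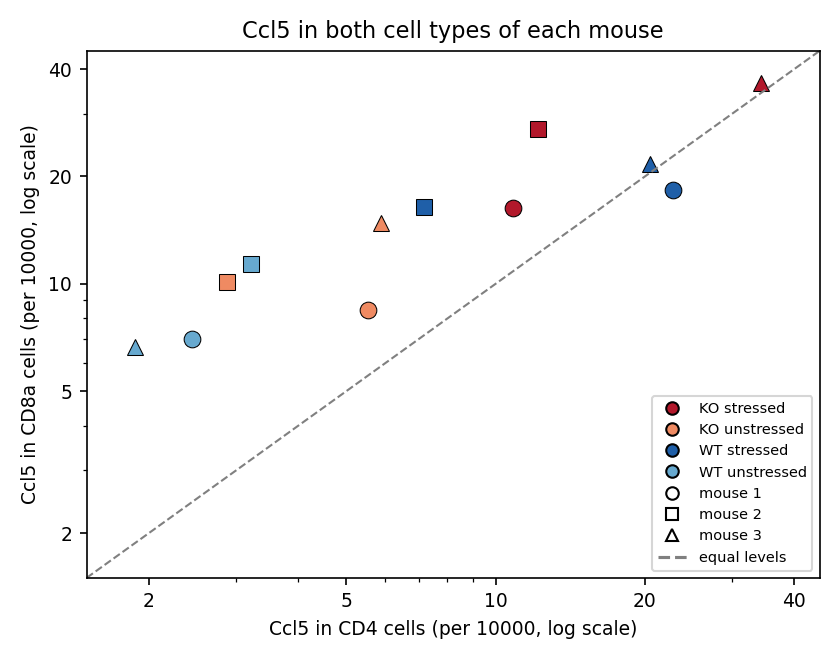
Ccl5 in CD8a cells (vertical axis) against CD4 cells (horizontal axis) of each of 12 mice, both per 10000 on log scales, with a dashed line at equal levels. Stressed mice lie to the upper right, and only stressed WT mouse 1 lies below the line, at 18.3 in CD8a and 22.8 in CD4 cells.

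Whether a mouse above its group mean in CD4 cells was also above it in CD8a cells was tested over the spread within groups. Over the deviations of the 12 mice from their 4 group means, Pearson's r was 0.63 (exact permutation within groups, p = 0.054) and Spearman's rho was 0.62 (exact p = 0.0455), from 1296 pairings. Without the stressed WT mouse 2 and the stressed KO mouse 3, the farthest from the median in CD4 cells, r was 0.55 (exact p = 0.139) and rho 0.54 (exact p = 0.132). The relation did not pass 0.05 without these mice. It was the only relation of Ccl5 between cell types that was tested, and both cell types of a mouse come from 1 library.

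In CD4 cells, Ccl5 reached a far larger share of its CD8a level than the CD8 genes did. How the cells were called is not given. If Cd8a or Cd8b1 took part in the call, their low share in CD4 cells was set by it. The level of Ccl5 in CD4 cells was 44.8% to 93.8% of that in CD8a cells of the same mouse in stressed KO mice, 43.7% to 125% in stressed WT mice, 28.4% to 65.4% in unstressed KO mice and 28.1% to 35.0% in unstressed WT mice. The corresponding level of Cd8a was 1.35% to 7.0% over all 12 mice, and that of Cd8b1 was 2.83% to 9.99%. Nkg7, a gene of cytotoxic granule membranes, lay between them at 9.55% to 35.7%, and Klrd1, a receptor of natural killer cells and effector T cells, at 11.3% to 25.2%. Over the 12 mice, whose libraries supply both values, the deviations of Cd8a and Ccl5 from their group means in CD4 cells had an r of 0.81. Cd8a in CD4 cells stood at 0.0526, 0.175 and 0.235 in stressed KO mice and at 0.269, 0.101 and 0.222 in stressed WT mice, against 0.0999, 0.0785 and 0.149 in unstressed KO mice and 0.160, 0.118 and 0.0625 in unstressed WT mice. The stressed and unstressed values overlapped, and neither stress difference of Cd8a in CD4 cells passed (limma, adjusted p = 0.558 in KO and 0.176 in WT). Without the stressed WT mouse 2, Cd8a and Cd8b1 were both called higher with stress in WT CD4 cells.

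**Figure D4:**
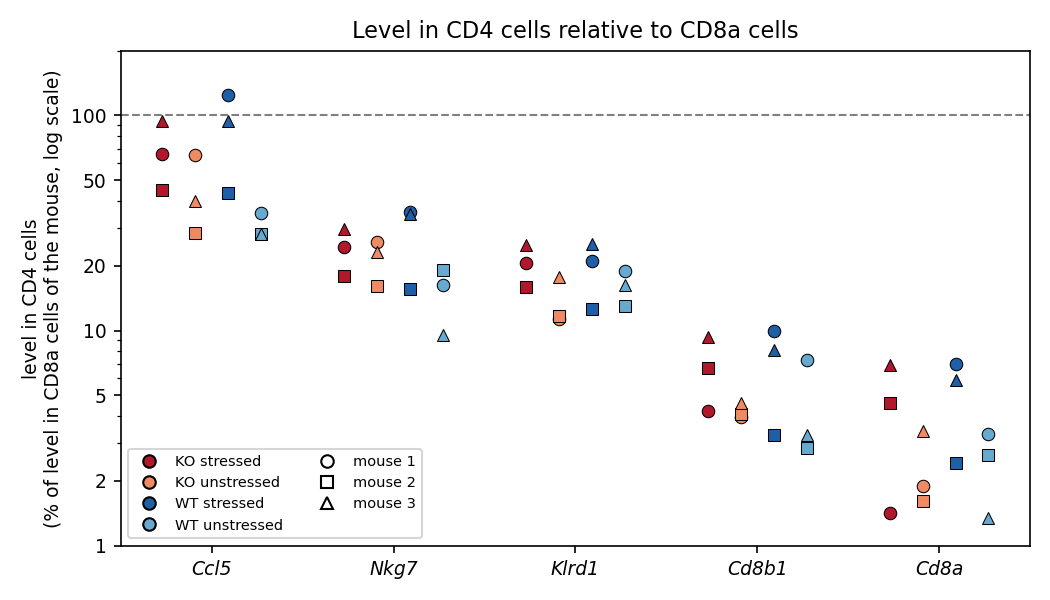
Level in CD4 cells as a percentage of the level in CD8a cells of the same mouse (vertical log axis) for Ccl5, Nkg7, Klrd1, Cd8b1 and Cd8a, 1 point per mouse, with groups coloured and set from left to right as stressed KO, unstressed KO, stressed WT and unstressed WT. Ccl5 lies between 28.1% and 125%, above Cd8b1 and Cd8a, which stay below 10.0%.

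Natural killer cells also carry Ccl5. Of 19 markers of these cells fixed without Ccl5, Nkg7 or granzymes, 5 are listed in each cell type. The defining markers Ncr1 and Klrb1c are not among the listed genes of either cell type, and Tyrobp and Fcer1g are listed only in CD4 cells. There Tyrobp averaged 0.134 and 0.144 in stressed and unstressed KO mice and 0.086 and 0.055 in stressed and unstressed WT mice. The 5 listed markers summed to 0.820 to 0.933 in CD4 cells of stressed KO mice against 0.508 to 0.773 in unstressed KO mice, and to 0.499 to 0.948 in stressed WT mice against 0.423 to 0.559 in unstressed WT mice. In CD8a cells the 5 summed to 3.03 to 4.88 in stressed KO mice against 2.90 to 3.69 in unstressed KO mice, and to 3.64 to 4.13 in stressed WT mice against 2.90 to 3.29 in unstressed WT mice. By the test 1 of the 5 rose with stress in KO and 0 in WT CD4 cells, against 12.7% and 22.9% of all genes. In CD8a cells 0 rose in KO and 1 in WT mice, against 13.2% and 18.8% of all genes. The gene that rose in KO CD4 cells was Klra1, at 0.111, 0 and 0.0697 in stressed KO mice, against 0, 0 and 0.0141 in unstressed KO mice. The gene that rose in WT CD8a cells was Xcl1. With centring 2 rose in KO and 1 in WT CD4 cells, against 29.8% and 32.7% of all genes. In CD8a cells centring gave 4 in KO and 5 in WT mice, against 38.3% and 44.3% of all genes. Without the stressed KO mouse 1, 4 rose in KO CD8a cells, and without the unstressed KO mouse 3, 2 rose there. Without the stressed WT mouse 2, 3 rose in WT CD8a and 1 in WT CD4 cells. In KO CD4 cells 2 rose without the stressed mouse 2 or the unstressed mouse 3, and 0 without any 1 of the other 4 mice. The deviations from the group means in CD4 cells had an r with those of Ccl5 of 0.74 for Klra3, 0.72 for Klrd1, -0.04 for Klra1, -0.15 for Fcer1g and -0.40 for Tyrobp. In CD8a cells the r was 0.73 for Klrd1, 0.65 for Klre1, 0.65 for Xcl1, 0.63 for Klra7 and 0.48 for Klra1. The part of natural killer cells in the level of Ccl5 was not tested. Platelets, another source of Ccl5 protein, are represented by 0 of 7 markers in either cell type. A gene that is not listed may still be expressed, since the authors selected the listed genes. Trac, a T cell marker, is not listed in either cell type. Unlisted markers therefore do not show that natural killer cells or platelets were absent.

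Markers of other lineages differed with stress as well. All 8 listed B cell markers were lower in CD4 cells of stressed than of unstressed KO mice by the test, and 1 of 8 in WT mice. In CD8a cells 9 of 9 were lower in KO and 7 of 9 in WT mice. The last count was 2 without the unstressed WT mouse 1. Of all genes, 29.0% were called lower in KO and 27.7% in WT CD4 cells, and 34.4% in KO and 35.5% in WT CD8a cells. The B cell markers summed to 3.46 to 4.19 in CD4 cells of stressed KO mice against 7.65 to 11.6 in unstressed KO mice. They summed to 4.41 to 7.26 in stressed WT mice against 3.50 to 9.16 in unstressed WT mice. The 4 listed haemoglobin genes summed to 1.39 to 15.9 in CD8a cells of stressed KO mice, against 0.351 to 2.77 in unstressed KO mice. They summed to 0.228 to 0.688 in stressed WT mice, against 0.0342 to 0.850 in unstressed WT mice. Of 10 listed markers of neutrophils and monocytes, 4 (S100a8, S100a9, Cst3 and Bst2) rose with stress in WT CD4 cells, where all 10 summed to 2.45 to 3.15 in stressed mice against 1.49 to 1.70 in unstressed mice. In KO CD4 cells 1 rose and 1 fell (Lcn2 and Lyz2), with sums of 2.97 to 3.67 in stressed mice against 2.21 to 4.06 in unstressed mice. In CD8a cells 9 are listed, of which 2 rose in KO and 3 in WT mice and 1 fell in each, with sums of 2.39 to 2.92 in stressed KO mice against 2.23 to 3.43 in unstressed KO mice, and of 2.48 to 2.57 in stressed WT mice against 1.82 to 2.24 in unstressed WT mice. There Ngp and Camp rose in KO mice, S100a8, S100a9 and Bst2 rose in WT mice, and Ms4a6c fell in both. In KO CD4 cells 4 rose without the unstressed KO mouse 1, 2 without the stressed KO mouse 3, and 0 without the stressed KO mouse 1 or 2 or the unstressed KO mouse 3. In KO CD8a cells 1 rose without the stressed KO mouse 1 or 3 or the unstressed KO mouse 3. The shares of all genes called higher were 12.7% in KO and 22.9% in WT CD4 cells. They were 13.2% in KO and 18.8% in WT CD8a cells. Stressed KO mouse 1, with the highest haemoglobin sum of its group, had the lowest Ccl5 of its group in both cell types. The same held for unstressed KO mouse 1 in CD8a cells. Elsewhere the mouse with the highest haemoglobin sum had the middle Ccl5 of its group. This was so in CD4 cells of unstressed KO mice and in both cell types of both WT groups. The part of these other lineages in the Ccl5 result was not tested.

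Only a few other chemokine genes are among the listed genes. Of 34 further chemokine ligands, 1 is listed in CD4 cells and 2 in CD8a cells. Ccl4, a chemokine encoded in the same cluster, stood in CD4 cells at 0.0231, 0.0461 and 0.0839 in stressed KO mice against 0.0179, 0.0126 and 0.125 in unstressed KO mice. It stood at 0.0394, 0.0124 and 0.0862 in stressed WT mice, against 0.00850, 0.00416 and 0.0171 in unstressed WT mice. These values overlapped in both genotypes, and the stress difference did not pass in either (limma, adjusted p = 0.900 in KO and 0.195 in WT). In CD8a cells Ccl4 spread from 0.00533 to 0.511 in stressed KO mice, and its stress differences did not pass (limma, adjusted p = 0.903 in KO and 0.193 in WT).

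Xcl1, a chemokine that draws cross-presenting dendritic cells, rose with stress in WT CD8a cells. It stood there at 0.511, 0.844 and 0.478 after stress, against 0.248, 0.315 and 0.0917 without stress, with no overlap (log2 1.20 ± 0.30, limma, adjusted p = 0.00207). In KO CD8a cells it stood at 0.261, 0.845 and 0.660 after stress, against 0.248, 0.238 and 0.388 without stress (log2 0.73 ± 0.30, limma, adjusted p = 0.0543).

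Of 17 receptors for other chemokines and for exit from the spleen, 11 are listed in CD4 cells. In KO mice 2 rose with stress (Cxcr3 and S1pr5) and 3 fell (Ccr4, Ccr6 and S1pr1). In WT mice 2 rose (Cxcr3 and Cx3cr1) and 1 fell (S1pr1). The KO counts are near the 12.7% called higher and 29.0% called lower of all genes, and both WT counts are below the 22.9% and 27.7% of all genes. Cxcr3, which guides effector T cells to sites of interferon activity, rose by 0.72 ± 0.23 in KO mice (limma, adjusted p = 0.0175) and by 0.58 ± 0.23 in WT mice (limma, adjusted p = 0.0454). Cxcr3 is also among the genes picked below for their likeness to Ccl5, so its p-values are a description. The receptor counts are small and moved with single mice. Without the unstressed KO mouse 2, 0 receptors were called in KO mice, and without the stressed KO mouse 3, 0 rose there. In WT mice 0 rose without the stressed mouse 1, the stressed mouse 3 or the unstressed mouse 3. S1pr1, the receptor that lets T cells leave lymphoid organs, fell by 0.32 in KO and by 0.65 in WT CD4 cells (log2 scale). In CD8a cells 6 of the 17 receptors are listed. There 1 rose (Cxcr3) and 3 fell (Ccr9, Ccr7 and S1pr1) in KO mice, while 0 rose and 4 fell in WT mice, S1pr4 being the fourth. Of all genes, 13.2% were called higher and 34.4% lower in KO CD8a cells, and 18.8% and 35.5% in WT CD8a cells. With centring 1 receptor rose and 2 fell in KO mice, against 38.3% and 30.7% of all genes. In WT mice centring gave 1 that rose and 3 that fell, against 44.3% and 32.5%.

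Genes of the effector and memory programme, a list of 51 fixed without Ccl5, are listed at 36 in CD4 cells. In WT mice 18 rose and 1 fell (Itga4, an integrin chain for homing), with a median log2 difference of 0.64, against 22.9% called higher and 27.7% called lower of all genes. In KO mice 2 rose (Gzma and Cxcr3) and 3 fell (Ahnak, Itga4 and the interleukin receptor chain Il2rb), with a median of 0.06, against 12.7% called higher and 29.0% called lower. The interaction of these genes was not called for any of them. Without the stressed WT mouse 1 the WT count of genes that rose was 11. The KO count was between 1 and 4 with 1 mouse left out, and centring each mouse on its own median gave 7. With centring 29.8% of all genes were called higher in KO CD4 cells.

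Gzma stood in CD4 cells at 1.02, 1.18 and 3.27 in stressed KO mice, against 0.140, 0.0914 and 0.194 in unstressed KO mice. It stood at 2.22, 0.616 and 2.66 in stressed WT mice, against 0.137, 0.0123 and 0.0638 in unstressed WT mice. The stressed and unstressed groups did not overlap, and stressed KO mouse 3 was the highest and stressed WT mouse 2 the lowest of their groups, as they were for Ccl5. Gzma rose by 2.83 ± 0.45 in KO mice (limma, adjusted p = 9.44e-05) and by 3.35 ± 0.45 in WT mice (limma, adjusted p = 1.72e-05). Members of the list were named by the size of this difference, so these p-values describe Gzma and are no separate support. The next largest rises of the list in WT CD4 cells were Gzmb at 1.76, S100a4 at 1.75, S100a6 at 1.48, Ly6c2 at 1.28 and Nkg7 at 1.23 (log2). Gzmb is another granule protease, the S100 genes encode calcium-binding proteins, and Ly6c2 marks effector and memory T cells. In KO mice these 5 did not pass, with log2 differences of 0.47, -0.01, 0.06, 0.76 and 0.49.

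S100a4 and S100a6 also differed between genotypes without stress. S100a4 stood in CD4 cells at 4.25, 4.31 and 1.04 in unstressed KO mice against 0.502, 0.822 and 0.384 in unstressed WT mice, and it passed the KO against WT test without stress (log2 2.11, limma, adjusted p = 0.0262). Of the 36 listed effector genes, 5 passed that test as higher in KO mice (Il2rb, S100a4, S100a6, S100a11 and Anxa2), against 2.23% of all genes, with a median log2 difference of 0.57. Ccl5 at 0.86 was above this median but did not pass. Markers of other cells differed in the same contrast. All 4 listed haemoglobin genes were called higher in KO mice, with a median log2 difference of 2.36 and sums of 0.627 to 5.52 in unstressed KO mice against 0.0891 to 0.141 in unstressed WT mice. Of 10 listed markers of neutrophils and monocytes 2 (Lyz2 and Cst3) were called higher, with a median of 0.54 and sums of 2.21 to 4.06 against 1.49 to 1.70. Their part in the effector genes was not tested. The count of effector genes was 0 when any 1 mouse of the contrast other than unstressed KO mouse 3 was left out, and 12 without that mouse. In the same way the haemoglobin count was 0 or 1 and the neutrophil and monocyte count 0 or 1 without any 1 of these other mice, against 4 and 5 without unstressed KO mouse 3.

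In CD8a cells 25 of the 51 effector genes are listed. With stress 10 rose and 2 fell in KO mice, with a median log2 difference of 0.26, and 10 rose and 2 fell in WT mice, with a median of 0.28. The 2 that fell were Ahnak, at -0.60 in KO and -0.72 in WT mice, and Itga4, at -0.85 and -1.13. The largest rises were S100a6 at 0.76, Ctla2a at 0.66, Cxcr3 at 0.66 and Gzmm at 0.60 in KO mice, and Ctla2a at 0.86, S100a6 at 0.69, Hopx at 0.47 and Ly6c2 at 0.46 in WT mice (log2). Without the stressed KO mouse 2, the stressed KO mouse 3 or the unstressed KO mouse 2, 6 rose in KO mice. Over all genes, 13.2% and 18.8% were called higher in these genotypes. Nkg7 stood in CD8a cells at 6.79, 7.69 and 7.58 in stressed KO mice, against 6.38, 5.71 and 4.84 in unstressed KO mice. It stood at 7.47, 6.13 and 6.53 in stressed WT mice, against 4.96, 5.30 and 4.50 in unstressed WT mice. It rose by 0.38 ± 0.09 in KO mice (limma, adjusted p = 0.00209) and by 0.44 ± 0.09 in WT mice (limma, adjusted p = 0.000569), so its difference was below those of Ccl5 given above. Centring each mouse on its median raised the counts that rose to 17 in KO and 18 in WT mice. It also raised the share of all genes called higher, to 38.3% in KO and 44.3% in WT CD8a cells. This scaling moved the median stress difference of all genes by 0.14 in KO and 0.06 in WT CD4 cells, and by 0.18 in KO and 0.20 in WT CD8a cells.

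Ccl5 is stored and released by cytotoxic lymphocytes, and 19 of their granule and secretion genes were counted. The gene lists share members, such as Gzma, Gzmb and Nkg7 here and in the effector list, and Cxcr3 in the effector and receptor lists. Their counts are therefore not independent. In CD4 cells 14 of the 19 are listed, of which 1 rose in KO mice (Gzma) and 6 in WT mice (Gzma, Gzmb, Nkg7, Gzmk, Gzmm and Stx11), and 0 fell. In CD8a cells 7 are listed, of which 2 rose in KO mice (Gzmm and Nkg7) and 2 in WT mice (Nkg7 and Srgn). Gzma, Gzmb, Gzmk and Prf1 are not among the genes listed for CD8a cells. Of all genes, 12.7% were called higher in KO and 22.9% in WT CD4 cells, and 13.2% in KO and 18.8% in WT CD8a cells. Without the stressed WT mouse 2, 9 rose in WT CD4 cells, and without the unstressed KO mouse 1, 2 rose in KO CD4 cells. With centring 2 rose in KO CD4 cells, against 29.8% of all genes. In CD8a cells centring gave 5 of 7 in each genotype, against 38.3% of all genes in KO and 44.3% in WT mice. With 1 mouse left out the CD8a count was between 1 and 3 in both genotypes. It was 1 without the stressed or the unstressed KO mouse 2, and without the stressed WT mouse 1, the stressed WT mouse 3 or the unstressed WT mouse 3. The deviations from the group means in CD4 cells had an r with Ccl5 of 0.88 for Gzmm, 0.86 for Gzmk, 0.85 for Nkg7, 0.82 for Gzma and 0.58 for Gzmb. In CD8a cells the r was 0.52 for Gzmm and 0.08 for Nkg7.

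Most listed genes of the naive state went the other way from Ccl5. Of 17, 12 are listed in CD4 cells, and 10 fell and 1 rose with stress in each genotype, against 29.0% called lower in KO and 27.7% in WT mice of all genes. With centring 7 fell in KO and 9 in WT CD4 cells, against 25.8% and 26.8% of all genes. In CD8a cells 14 are listed, of which 11 fell and 0 rose in KO mice and 10 fell and 1 rose in WT mice, against 34.4% and 35.5% called lower of all genes. Satb1, a chromatin organizer of T cells, fell by 0.89 in KO and 1.03 in WT CD4 cells. Klf2, a factor of quiescent T cells, was the gene of this list that rose, by 0.25 in KO and 0.34 in WT CD4 cells and by 0.25 in WT CD8a cells. The genes of the receptors by which the cells were named were also lower. Cd4 fell by 0.35 in KO and 0.64 in WT CD4 cells, and Cd8a fell by 0.40 in KO and 0.24 in WT CD8a cells (log2). With centring, neither Cd8a nor Cd8b1 was called in WT CD8a cells. Over the 12 mice, Cd8a and Ccl5 in CD8a cells had an r of -0.90, and -0.75 for the deviations within groups.

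**Figure D5:**
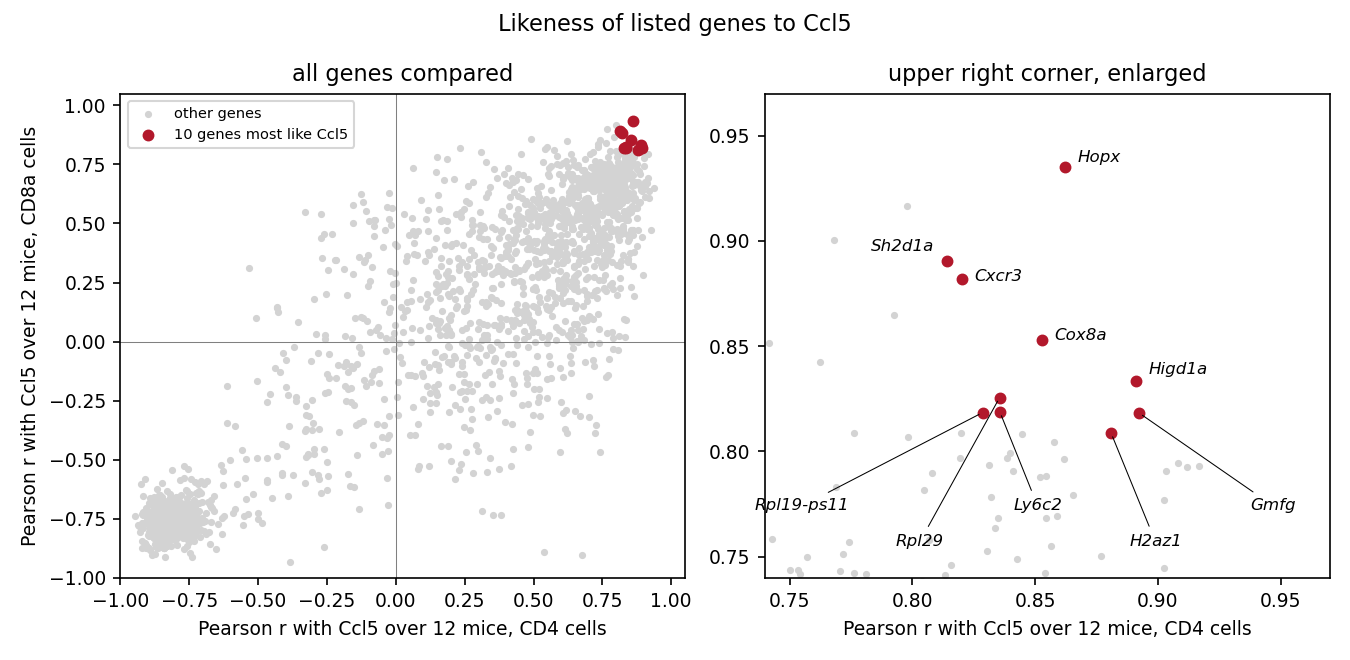
Pearson r of each gene with Ccl5 over 12 mice in CD4 cells (horizontal axis) and CD8a cells (vertical axis), for all genes compared (left panel) and the upper right corner enlarged (right panel). The 10 genes with the highest lower r, in red, reach at least 0.81 in both cell types, led by Hopx at 0.86 and 0.94.

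Genes most like Ccl5 were ranked by the lower of the 2 Pearson r with Ccl5 over the 12 mice, 1 in CD4 and 1 in CD8a cells, among 1907 genes listed in both. The median gene had a lower r of 0.10. The first 10 were Hopx, Cox8a, Higd1a, Rpl29, Cxcr3, Ly6c2, Rpl19-ps11, Gmfg, Sh2d1a and H2az1, with a lower r of 0.86 for Hopx and 0.81 for H2az1. Since r over all mice takes in the stress difference, r of the deviations from the group means stands beside it. The r over all mice takes in these deviations too. For the genes picked by it, r of the deviations is therefore a description and no separate support. The r of the deviations was 0.82 in CD4 and 0.80 in CD8a cells for Hopx, which encodes a small homeodomain protein of effector and memory T cells. For Cxcr3 it was 0.66 and 0.82, and for Ly6c2 0.68 and 0.71, in the same order. For Sh2d1a, which encodes the signalling adaptor SAP, it was 0.37 and 0.65, and for H2az1, a histone variant gene, 0.67 and 0.42.

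The other 5 had a low r of the deviations in at least 1 cell type. Cox8a, a subunit gene of cytochrome c oxidase, had an r of the deviations of 0.15 in CD4 and 0.14 in CD8a cells. Higd1a, a mitochondrial gene of the hypoxia response, had 0.51 and 0.14, and Gmfg, an actin regulator, had 0.32 and 0.06. The ribosomal protein gene Rpl29 had -0.25 and -0.09. The ribosomal pseudogene Rpl19-ps11 had -0.07 and -0.32, and its reads may be shared with its parent gene. Hopx stood in CD8a cells at 0.670, 0.986 and 1.16 in stressed KO mice, against 0.661, 0.598 and 0.680 in unstressed KO mice. It stood at 0.861, 0.717 and 0.800 in stressed WT mice, against 0.457, 0.626 and 0.557 in unstressed WT mice. Stressed KO mouse 3 was the highest for Hopx as for Ccl5, and the KO groups overlapped by the value of stressed KO mouse 1. The stress difference of Hopx was 0.45 ± 0.15 in KO and 0.47 ± 0.15 in WT CD8a cells (log2, SE). In CD4 cells it was 0.18 ± 0.20 in KO and 0.68 ± 0.20 in WT mice. Hopx was picked by its r with Ccl5 over all mice, which takes in the stress difference. Its stress differences are therefore described with no test.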

How the data were processed

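Spleen cells of 12 mice were sequenced with the 10x Genomics 3' v2 kit, per the labels' protocols, and the submitters' processing notes name Cell Ranger 2.1.1 and the build mm10. The authors deposited 8 tables of a signal, the average expression per mouse per the file headers, 4 for each of CD4 and CD8a cells. Each lists genes the authors selected on these mice, by a rule not given in the sources used here, and 0 genes differed between tables of a cell type. Annotation, cell filters, doublet treatment and cells per mouse are not given either, and 0 sample columns were ignored.

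Genes were fitted as log2(value + 0.1), which understates changes of low genes, with limma 3.58.1 in R 4.3.3 (mean-variance trend). One fit per cell type held all 12 mice in 4 groups, over 2999 genes in CD4 and 2851 in CD8a cells. P-values were two-sided with Benjamini-Hochberg adjustment over the fit, and a gene was called under 0.05. The fit was tested on simulated data. The labels do not say whether mice were housed or processed together, so p-values measure the spread between these mice. Genotype over both conditions used an exact permutation test in Python 3.11.15 with SciPy 1.17.1. Gene positions came from GENCODE M21.

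Ccl5, the gene lists, the tests and the alternatives were chosen with earlier results of these data known. Like genes were compared if listed in both cell types at a mean of at least 0.1 in each, with predicted genes and receptor segments left out, and the first 10 were named. Up to 6 called members of a list were named, by size of the difference, and the others named were chosen after their values were seen. P-values given for these named genes describe them and are no separate support. Results for some members of the gene lists, and for a list of transcription factors, are not reported here.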

Additional observations from a re-analysis of the deposited data

How the results depend on the processing

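Alternatives were pseudocounts of 0.01 and 1, leaving out the lowest 25% of genes, centring on each mouse's median, no trend, array quality weights, the authors' genes alone, 2 groups alone, the mouse number as a block, and leaving out each mouse (for list counts, chosen after seeing the data). No KO against WT or interaction test of Ccl5 by limma passed under any of them. With 1 mouse left out, the CD4 KO minus WT difference after stress ranged from -0.38 to 0.44, the CD8a interaction from -0.24 to 0.34, the CD8a minus CD4 difference in stressed WT mice from -0.12 to 0.63, and the CD8a permutation value from 0.29 to 0.58. With a pseudocount of 1, the CD8a minus CD4 difference in unstressed WT mice was 1.39. Counts of genes called depended more on the setting. The 97 genes of CD4 KO against WT without stress became 52 without the lowest genes, 41 without the trend and 276 with weights, and the 3 after stress became 5 without the trend. The 20 genes of CD8a KO against WT without stress became 7 without the lowest genes and 61 with weights, and the 18 after stress became 9 with a pseudocount of 1, 7 without the lowest genes and 11 without the trend. For the interaction, 1 CD4 gene was called with a pseudocount of 0.01 and 1 without the trend. The causes were not tested. Mice were not treated as paired by their number in the main fit. Of the pairs of same-numbered mice, 1 of 18 in CD4 cells and 4 of 18 in CD8a cells had a correlation over 0.1. The highest was 0.23 in CD4 and 0.24 in CD8a cells, and 2 and 6 of the 18 pairs were each other's best match. Whether same-numbered mice shared a batch was not tested. With the mouse number as a replicate block, Ccl5 in CD4 cells of unstressed KO against WT mice stayed at 0.86 (limma, adjusted p = 0.241), and 1 gene was called for the CD8a interaction. With centring, genes called higher were 53.6% of the calls with stress in KO CD4 cells, against 30.5% without centring, and 55.5% against 27.7% in KO CD8a cells and 57.7% against 34.7% in WT CD8a cells. For KO against WT, 30 of 75 called genes were higher in KO with centring and 67 of 97 without it in unstressed CD4 cells, and 3 of 14 and 9 of 18 in stressed CD8a cells. The number of cells per average limits all values.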
